A study of Mus musculus with 4 samples.

Results

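The core circadian clock and its output factor Dbp were followed in the livers of mice that had fasted and of mice that had eaten again. The genes were Arntl, Clock, Per1, Per2, Per3, Cry1, Cry2, Nr1d1, Nr1d2 and Dbp. Their spots were found by the gene name in the scanner files, which gave 13 probes of 10 genes among 39429 probes of the array, or 10 of 22803 named genes. Cry2, Nr1d2 and Dbp each had a second probe.

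The livers came from male C57BL/6J mice, 8 to 12 weeks of age. The fasted mice went without food for 24 h, and re-fed mice went through the same fast and then had food for 2 h before the liver was taken, so every liver in the study had been through the fast. RNA of 4 fasted and 4 re-fed livers, 200 ng each, was labelled with the red dye Cy5 or the green dye Cy3 and hybridised as 1 fasted and 1 re-fed liver per array, with the dyes exchanged on replicates 3 and 4. An array is 1 replicate here (n = 4), and all ratios are log2 ratios of fasted over re-fed liver. In the feeding scheme the study describes, fasted mice were killed when the fast ended and re-fed mice 2 h later, so feeding and this difference in hour cannot be told apart. The hour of day itself is not given in the sources used here. In whole liver, fewer cells of a type and less RNA per cell cannot be told apart either.

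In the liver clock, the proteins of Arntl (also called BMAL1) and Clock bind together to E-box elements and switch on the Per and Cry genes, Nr1d1 and Nr1d2 (REV-ERB alpha and beta) and Dbp. PER and CRY proteins then hold back that same pair, and the REV-ERB proteins repress Arntl through RORE elements, which closes a second loop. DBP, with its relatives TEF and HLF, acts through D-box elements on genes of drug, bile acid and heme metabolism, and NFIL3 opposes it at the same elements. The time of feeding is a well known cue for the phase of this clock in liver.

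The values of Dbp and Per2 rest on 3 oligonucleotide probes, each 60 bases long. Their first 30 bases are shown because the called differences among the clock genes were read at these sites, in the mm9 build used by the files. The starts of the Dbp probes lie 139 bases apart, so they read different stretches of the same transcript.
Dbp, brighter probe, chr7:52965461-52965490, plus strand: tggggaacccatccatccaaccgcctccat
Dbp, dimmer probe, chr7:52965322-52965351, plus strand: atggccagtggtctggccagctaggtgccc
Per2, chr1:93313076-93313105, minus strand: acctttcacagtgatcaggtagtagccatg

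The elements through which clock proteins act were sought in RefSeq promoter windows of the GRCm38.p6 build, from 250 bases before to 50 bases after each transcription start. Of the 10 genes, 9 had a window, 13 windows in all; Per2 had none. The search covered the E-box (CACGTG), the D-box (TTANGTAA, with T or C at N), the cyclic AMP response element CRE (TGACGTCA), its half-site (TGACG, which every full CRE also holds), the RORE, and the heat shock element (GAANNTTC), on both strands. Sequences below are given with 15 bases on either side, with the matched letters in capitals, and they are a selection of the matches that lie before a transcription start.
Per1, E-box 166 bases before the start, chr11:69098768-69098803, plus strand: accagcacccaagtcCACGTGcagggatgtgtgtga
Per1, second start, CRE half-site 132 bases before it, chr11:69100005-69100039, plus strand: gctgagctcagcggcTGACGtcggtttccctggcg
Cry1, E-box 60 bases before the start, chr10:85185094-85185129, minus strand: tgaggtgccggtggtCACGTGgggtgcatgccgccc
Per3, D-box 205 bases before the start, chr4:151044848-151044885, minus strand: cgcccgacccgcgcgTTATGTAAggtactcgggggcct
Per3, D-box 158 bases before the start, chr4:151044801-151044838, minus strand: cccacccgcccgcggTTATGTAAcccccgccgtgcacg

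An E-box was found in 2 of the 13 windows, those of Per1 and Cry1, against 7.15% of all 32851 promoter windows. The D-box, held by 1.06% of all windows, was found in that of Per3, where it occurs at both positions shown. A RORE, held by 0.384% of all windows, was found in 1 window of Arntl, 26 bases after the start. CRE half-sites were found in 4 windows, of Per1 (both starts), Cry1 and Cry2, against 20.8% of all windows. No full CRE and no heat shock element was matched, against 1.79% and 7.86% of all windows. The windows of Dbp, Clock, Nr1d1 and Nr1d2 held none of the letters searched, which says only that these letters are not within these bases. A match is a stretch of letters, and binding was not measured in these files.

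A probe was kept for testing if every fasted or every re-fed liver gave a signal well above background at it. This held for 11 of the 13 probes and 8 of the 10 genes. Per3 stood above background in 0 of 4 fasted and 1 of 4 re-fed livers, and Cry1 in 3 of 4 livers of either group. The files place the Arntl probe at chr7:120457261-120457320, that of Clock at chr5:76641377-76641436, that of Per1 at chr11:68923364-68923423 and that of Nr1d1 at chr11:98630526-98631028 in mm9. The brighter probes of Cry2 and Nr1d2 lie at chr2:92243807-92243866 and chr14:19036568-19036627, and those of Per3 and Cry1 at chr4:150379256-150379315 and chr10:84594731-84594790. Whether a probe covers coding or untranslated sequence is not stated there. A gene was read at its brightest kept probe, and it was called where the adjusted p in limma was under 0.10 and the change at least 1.5-fold. By this rule 3.78% of all 19721 kept probes were called.

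Of the 8 clock genes measured, 2 were called lower in fasted liver, Dbp and Per2, against 2.33% of all 13023 named genes. Per2 was kept only through its re-fed signal, and where both channels had to stand above background it had no value and 1 gene, Dbp, was called lower, so nothing is read from the count itself. None was called higher, against 1.92% of all named genes; Arntl was higher at an unadjusted p under 0.05 but missed the fold limit, and 0 were called higher by a rebuilt SAM test, the permutation method named by the study. The median ratio of the 8 was -0.09, with medians on the 4 arrays between -0.19 and -0.05, and the median of all named genes was 0.00313. The mean ratios differed by member: those of Dbp and Per2 were -1.37 and -1.30, Arntl lay above 0 on every array, and Clock, Cry2 and Nr1d2 lay within 0.11 of 0.

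**Figure D1:**
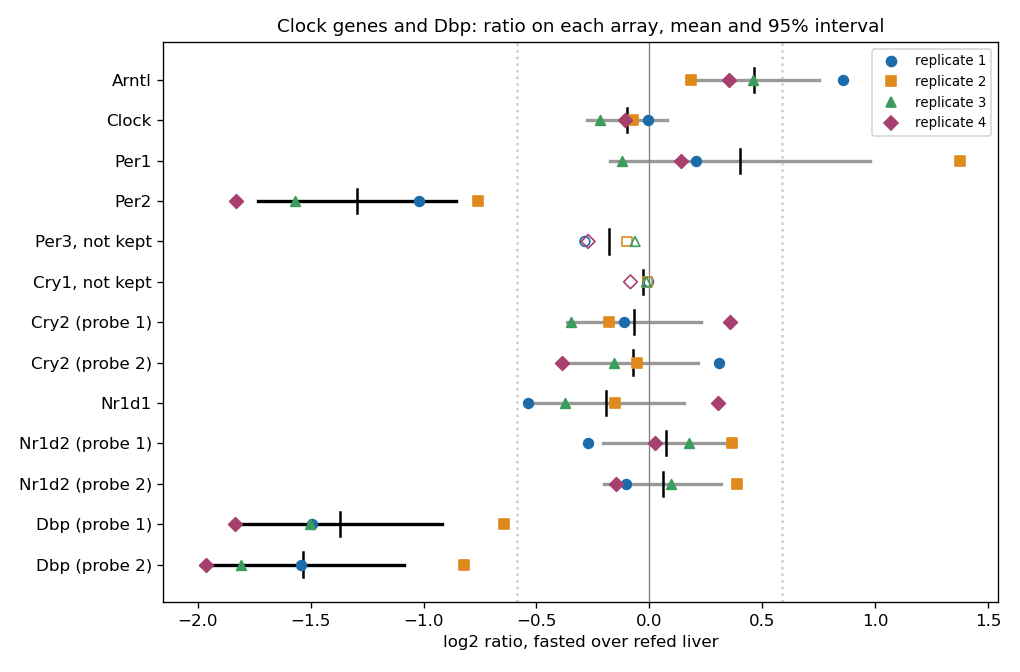
Log2 ratio of fasted over re-fed liver (horizontal axis) for the 13 probes of the 10 genes, with a symbol for each of the 4 arrays, a tick at the mean and a bar for the 95% interval of the limma fit (black where called; dotted lines mark 1.5-fold; open symbols are probes not kept). All 4 symbols of Per2 and of each Dbp probe lie left of the lower dotted line, and those of Arntl all lie right of 0.

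Dbp was called lower at either of its probes. Its level is given as log2 intensity of each channel after scaling between arrays, so that levels of a probe can be compared between livers. In fasted liver it was 11.92, 10.77, 8.76 and 8.55 on replicates 1 to 4, and in re-fed liver 13.41, 11.41, 10.26 and 10.38. The re-fed liver had the higher level on every array, but the groups overlapped, because the livers of replicates 1 and 2 stood well above those of replicates 3 and 4 in either group. The ratios were -1.496, -0.643, -1.504 and -1.832, with a mean of -1.37 ± 0.51 (SD, n = 4, 95% interval -1.82 to -0.92), that is 2.58-fold lower in fasted liver, with an adjusted p of 0.0163 in limma. The dimmer Dbp probe gave ratios of -1.54, -0.82, -1.81 and -1.96 and a mean of -1.53 ± 0.505 (SD, n = 4, adjusted p of 0.013), so the probes of Dbp had the same order of arrays and the same call.

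The call of Dbp was made on ratios within arrays. When each channel was fitted as a separate sample, with the channels of a spot linked by 1 shared correlation of 0.144, Dbp kept its ratio of -1.37 but had an adjusted p of 0.339, with the 8 levels spread by 1.62 (SD) among fasted and 1.46 among re-fed livers. With the background fitted on all spots, Dbp was at -0.66 and was not called (adjusted p of 0.559). Leaving out each array in turn gave ratios of -1.61 to -1.21, all called.

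Per2, which encodes a repressor of the clock and whose transcript is known to respond to feeding as well as to the clock itself, was the other gene called lower. Its level was 6.76, 6.87, 6.19 and 6.27 in the fasted livers and 7.78, 7.63, 7.76 and 8.09 in the re-fed livers. The groups did not overlap, which held for 1 of the 8 clock genes and, in this direction, for 8.55% of all named genes. Per2 was kept only through its re-fed signal, which favours such a separation, so nothing is read from it. The ratios of -1.02, -0.76, -1.57 and -1.83 had a mean of -1.30 ± 0.49 (SD, n = 4, 95% interval -1.73 to -0.86), with an adjusted p of 0.0174 in limma. Per2 was dim: it stood well above background in 2 of 4 fasted livers and in 4 of 4 re-fed livers, so its fasted level was in part a reading near background. The ratio moved with the background step, from -0.47 with the background fitted on all spots, where Per2 was not called (adjusted p of 0.559), to -2.71 with the scanner software's own processed signals (adjusted p of 0.0159). Per2 had no value where the software's background flags were applied or where both channels had to stand above background. Among other settings, it exceeded Dbp in size with no background correction (-1.55 against -1.39), without replicate 1 (-1.39 against -1.33), on replicates 2 and 4 alone (-1.29 against -1.24), with plain subtraction (-2.17 against -1.44), with the authors' log2 ratios (-1.66 against -1.44) and with the processed signals (-2.71 against -1.46).

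Per2 was also the gene among the 8 whose ratios differed between replicates 1 and 2 and replicates 3 and 4, on which the dyes were exchanged. These arrays also carried different livers, so dye and liver pair cannot be told apart. The model's term for this contrast was 0.40 for Per2 (adjusted p of 0.0474 in limma), and 15.9% of all named genes had one at an adjusted p under 0.10. With the software's processed signals 0 of the clock genes had one. With this term in the model, the adjusted p in limma for fasted against re-fed liver was 0.000833 for Per2 and 0.00384 for Dbp. Per2 was kept only through its re-fed signal and its fasted level was in part near background, so nothing is read from its smaller p.

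**Figure D2:**
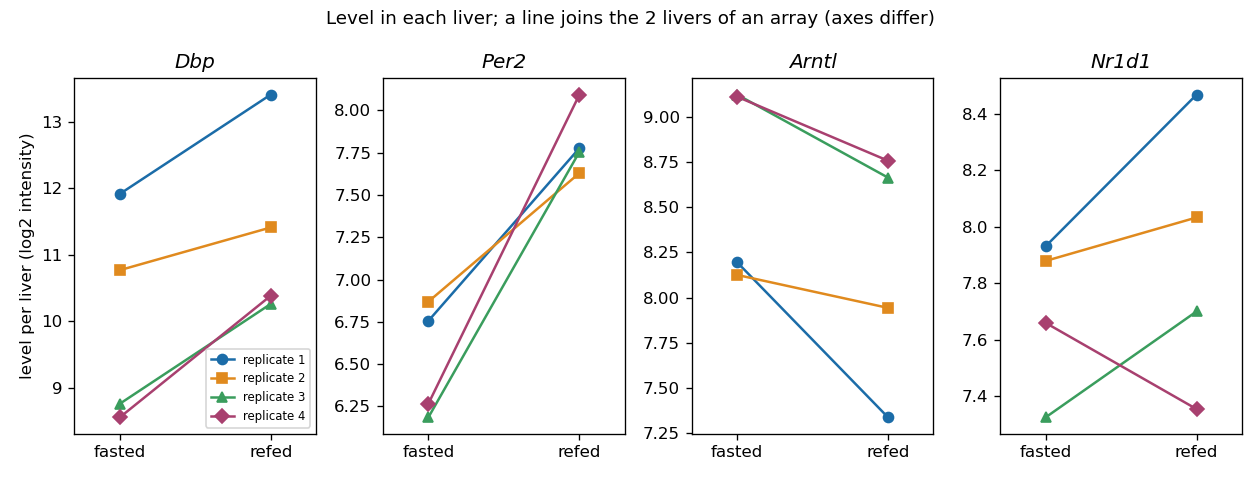
Level of Dbp, Per2, Arntl and Nr1d1 (log2 intensity, vertical axes with a range of their own) in each fasted and re-fed liver, with a line joining the livers of an array. The lines of Dbp and Per2 all rise from fasted to re-fed, those of Arntl all fall, and the Dbp lines lie far apart, from 8.55 to 13.41.

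Per1, the other period gene that was measured, was not called. Its fasted levels were 10.80, 11.001, 10.29 and 10.36 and its re-fed levels 10.59, 9.63, 10.41 and 10.22. Replicate 2 stood apart, with the highest fasted and the lowest re-fed level. The ratios were 0.21, 1.38, -0.12 and 0.14, and the mean of 0.40 ± 0.67 (SD, n = 4, adjusted p of 0.404 in limma) fell to 0.07 without replicate 2. Per2 was kept only through its re-fed signal, so nothing is read from a test of its difference from Per1. The pair was among the 6 in the sign-flip tests below, and its p entered their adjustment. The ratio of Per2 lay lower than that of Per1 by -1.69 on average, and by -3.20 to -0.86 over the alternatives. The direction of this difference was not the same on all 4 arrays with the background fitted on all spots. It had no value where both channels had to stand above background. Per3 gave ratios of -0.29, -0.10, -0.06 and -0.27 near background and cannot be set beside them.

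Neither gene of the activating pair was called. Arntl had fasted levels of 8.20, 8.13, 9.12 and 9.11 and re-fed levels of 7.34, 7.94, 8.66 and 8.76. The fasted liver was the higher on every array, but here too the livers of different arrays overlapped, with replicates 3 and 4 above replicates 1 and 2. Its ratio was 0.46 ± 0.29 (SD, n = 4, 95% interval 0.18 to 0.75), a 1.38-fold higher level whose adjusted p in limma, 0.0789, passed its limit while the fold did not. It was called with the software's processed signals, at 0.67 (adjusted p of 0.0696), and its adjusted p was over 0.10 when any single array was left out (0.114 to 0.234). With the background fitted on all spots Arntl was at 0.28 (adjusted p of 0.559 in limma). With each channel fitted as a separate sample its adjusted p was 0.443. Clock had fasted levels of 8.15 to 8.29 and re-fed levels of 8.16 to 8.43, and a ratio of -0.10 ± 0.09 (SD, n = 4, 95% interval -0.28 to 0.08; adjusted p of 0.502). Arntl lay above Clock by 0.56 ± 0.26 (SD, n = 4) on 4 of 4 arrays. In an exact sign-flip test this gives the smallest p that 4 arrays allow, 0.188 after adjustment over 6 pairs, Per2 and Per1 among them.

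The other repressors gave small ratios with mixed signs. Cry2, a cryptochrome that holds back the activating pair, had ratios of 0.31, -0.05, -0.16 and -0.39 at its brighter probe and a mean of -0.07 ± 0.29 (SD, n = 4, adjusted p of 0.799). Its other probe, 7610 bases away, had the same mean of -0.07 but its high array was replicate 4, at 0.36, so the order of arrays differed between the probes. Cry1 gave ratios of -0.00, -0.01, -0.01 and -0.08, close to background and not tested.

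Nr1d1, a repressor of Arntl, had fasted levels of 7.93, 7.88, 7.33 and 7.66 and re-fed levels of 8.47, 8.03, 7.70 and 7.36. It was lower in the fasted liver on replicates 1, 2 and 3 and higher on replicate 4, at -0.54, -0.15, -0.38 and 0.31 (mean -0.19 ± 0.37, SD, n = 4; 95% interval -0.53 to 0.15; adjusted p of 0.515). Nr1d2, its close relative, had a mean of 0.06 ± 0.24 (SD, n = 4, adjusted p of 0.819) and of 0.07 at its dimmer probe. Nr1d1 lay below Nr1d2 on 3 of 4 arrays, by -0.25 ± 0.47 (SD, n = 4, exact p = 0.375, 0.45 adjusted), and by -0.48 without replicate 4 and -0.15 without replicate 2. The 95% intervals still reach -0.36 for Cry2, -0.53 for Nr1d1 and 0.32 for Nr1d2, so they do not show that these genes were unaffected. Over all 8 genes, 4 (Arntl, Clock, Per2 and Dbp) had the same sign on every array, against 30.9% of all named genes. Of these, Per2 was kept only through its re-fed signal, which favours ratios below 0, and Clock was at -0.0046 on replicate 1.

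The level of some clock genes varied widely from array to array, which was noticed after the values had been seen. The mean of the fasted and the re-fed liver of each array was taken as its level, and the highest minus the lowest of the 4 means as its range. For Dbp the means were 12.66, 11.09, 9.51 and 9.47, a range of 3.19 or 9.16-fold. This was the 4th largest of 13023 named genes, with 0.023% above it, and the median gene had a range of 0.24. The dimmer Dbp probe had a range of 2.91. Arntl ranged by 1.17 in the opposite order, with means of 7.77, 8.03, 8.89 and 8.93, and 1.04% of genes had a larger range. Nr1d1 ranged by 0.69 in the order of Dbp, with means of 8.20, 7.96, 7.51 and 7.51, and 4.94% of genes had a larger range.

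These 3 of the 8 clock genes lay above the 95th percentile of all genes, which was 0.687, and which genes did so changed with the signals used. Clock, Cry2 and Nr1d2 lay at 0.19, 0.10 and 0.10, below the median gene, although the dimmer Nr1d2 probe, 685 bases away, ranged by 0.93. Per1 and Per2 ranged by 0.41 and 0.30. Among the relatives of Dbp, Tef ranged by 0.82 in the same order, with means of 13.25, 12.91, 12.45 and 12.43. Nfil3, the antagonist at the D-box, ranged by 1.30 in the opposite order, with means of 9.63, 10.13, 10.79 and 10.93, and Hlf ranged by 0.34. Of the 32 further clock and output genes described below, Tef and Nfil3 among them, 7 lay above the 95th percentile, with Cyp7a1 (1.72) and Cyp2b10 (1.55) the widest, followed by Nfil3, Usp2 (0.97), Alas1 (0.95), Noct (0.93) and Tef. The ranges of Dbp, Arntl and Nr1d1 were 3.08, 1.16 and 0.73 with each channel centred on its median, and 3.39, 1.49 and 0.89 with the software's processed signals. With those signals 6.47% of genes had a larger range than Nr1d1, and Per2 ranged by 1.03, with 4.42% of genes above it. Each mean holds a channel of either dye. Before scaling, the median brightness of gene spots also differed between replicates 1 to 4, at 40, 51.5, 60 and 75 in the red and 44, 57, 74 and 96 in the green channel, in the order in which Arntl and Nfil3 were higher and Dbp lower. Its part in these levels was not tested, and the difference between arrays has no test.

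**Figure D3:**
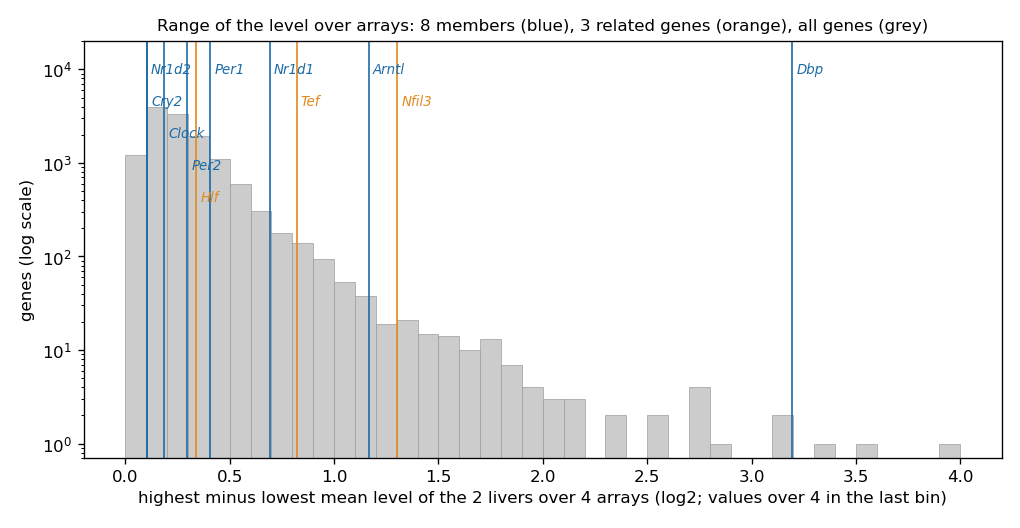
Number of named genes (vertical log axis) by the range of their level over the 4 arrays (horizontal axis, log2), with blue lines at the 8 clock genes and orange lines at Tef, Hlf and Nfil3. Dbp stands at 3.19, far to the right of most genes, and of the genes marked the next are Nfil3 at 1.30 and Arntl at 1.17.

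Some transcripts of other cells varied between livers as well. The 8 hepatocyte markers all stood above background in every liver, with mean ratios of 0.26, 0.46, 0.06 and 0.10 and summed levels (log2) of 18.39 to 18.64 in fasted and 18.17 to 18.52 in re-fed liver, and adipose markers stood above background in every liver for 0 of 4 genes. The 9 pancreatic acinar markers had a mean ratio of -3.81 on replicate 3 and of -0.09 to 0.03 on the other arrays, and their summed level was 9.72 to 10.75 in fasted and 9.68 to 14.95 in re-fed liver. The 3 erythroid markers had mean ratios of 1.73, -0.27, 1.99 and 0.20, with summed levels of 14.65 to 16.89 and 13.89 to 15.09. Markers of cholangiocytes, endothelial cells, macrophages, stellate cells and lymphocytes had mean ratios between -0.42 and 0.41 on any array, and 2 of 4, 4 of 4, 3 of 4, 3 of 4 and 2 of 3 of them stood above background in every liver. Without replicate 3, Dbp was at -1.32 (adjusted p of 0.0782) and Per2 at -1.20 (adjusted p of 0.0798). On replicates 2 and 4 alone, where erythroid ratios were small, Dbp was at -1.24 (adjusted p of 0.0805) and Per2 at -1.29 (adjusted p of 0.0547). This choice of arrays was made after the erythroid values were seen. The values of Per2 rest on fasted readings in part near background, so nothing is read from its p here.

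No relative of Dbp was called. Tef had ratios of -0.21, -0.10, -0.27 and -0.35 (mean -0.23 ± 0.105, SD, n = 4; adjusted p of 0.14 in limma), with fasted below re-fed liver on every array. Hlf had a mean of -0.20 ± 0.24 (SD, n = 4, adjusted p of 0.355), and Nfil3 a mean of 0.48 ± 0.43 (SD, n = 4, adjusted p of 0.154). Dbp lay below Tef by -1.14 ± 0.41 and below Hlf by -1.17 ± 0.39 (SD, n = 4), on 4 of 4 arrays in either case. Each again had the smallest exact p (0.188 adjusted over the 6 pairs, Per2 and Per1 among them). With the background fitted on all spots, Dbp lay below Tef by -0.41 (exact p = 0.375). Tef and Hlf differed by -0.04 ± 0.21 (SD, n = 4, exact p = 1.0).

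Further genes tied to the clock were counted from lists, 36 genes of which 32 had a kept probe. Of these, 3 were called lower (Bhlhe40, Wee1 and Alas1) and 2 higher (Por and Cyp2b10) in fasted liver, against 2.33% and 1.92% of all named genes, which is also the background for the lists below. The median of the 32 ratios was 0.04. Among 9 other clock transcription factors, 6 were measured and 1 was called. Bhlhe40, also called DEC1, a repressor at E-boxes, had ratios of -1.25, -0.62, -0.62 and -0.23 and a mean of -0.68 ± 0.42 (SD, n = 4, adjusted p of 0.0641). It was not called without replicate 1 (-0.49, adjusted p of 0.082), replicate 2 (-0.70, 0.169) or replicate 3 (-0.70, 0.187). Among the other 5, Rora, an activator at the RORE, was at 0.39 (adjusted p of 0.0467) below the fold limit.

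No gene of the 7 clock kinases and ubiquitin ligases was called, with adjusted p of 0.181 or more at their brightest probes. The dimmer probe of Csnk1d, a kinase of this list, was at 0.29 (adjusted p of 0.0628 in limma), below the fold limit. The 5 cofactors lay between 0.05 and 0.46 with none called. Sirt1, an NAD-dependent deacetylase, was the highest of them at 0.46 ± 0.14 (SD, n = 4, adjusted p of 0.0324), below the fold limit.

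Of the 4 clock-driven outputs, 1 was called, lower in fasted liver. Wee1, a kinase that holds back entry into mitosis and is driven from E-boxes, had ratios of -1.41, -0.86, -0.22 and -1.06 and a mean of -0.89 ± 0.499 (SD, n = 4, adjusted p of 0.0463). It was at -0.58 and not called with the background fitted on all spots (adjusted p of 0.559), at -1.48 with plain subtraction and at -1.76 with the software's processed signals, and was not called without replicate 2 (adjusted p of 0.143) or replicate 4 (0.149). Usp2, a ubiquitin protease, had ratios of -1.30, 0.63, -0.48 and -1.5 and missed the p limit (adjusted p of 0.33). Noct, a deadenylase-like factor also called Ccrn4l, had ratios of 0.88, 1.18, -0.71 and -1.66, so its mean of -0.08 describes no array. Its term for the exchange of dyes, which cannot be told apart from the liver pairs, was 1.11 (adjusted p of 0.029).

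Of the genes known as targets of DBP, TEF and HLF, 7 of 8 were measured, 1 was called lower, 2 were called higher and 4 were not called. Alas1, the rate-limiting enzyme of heme synthesis, had ratios of -0.95, -1.18, -1.83 and -1.66 and a mean of -1.40 ± 0.41 (SD, n = 4, adjusted p of 0.0107), and -0.93 at its dimmer probe (adjusted p of 0.00793). Por, the reductase that serves cytochrome P450 enzymes, was higher by 0.81 ± 0.44 (SD, n = 4) with an adjusted p of 0.0456, and Cyp2b10, a drug-metabolising P450, was higher by 0.97 ± 0.67 (SD, n = 4) with an adjusted p of 0.0714. Neither was called without replicate 2 (adjusted p of 0.14 and 0.205), nor Cyp2b10 without replicate 3 (0.161). Cyp7a1, the rate-limiting enzyme of bile acid synthesis, had ratios of 0.61, 0.599, -0.98 and -2.42, and its term for the same contrast of arrays was 1.15 (adjusted p of 0.0464).

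**Figure D4:**
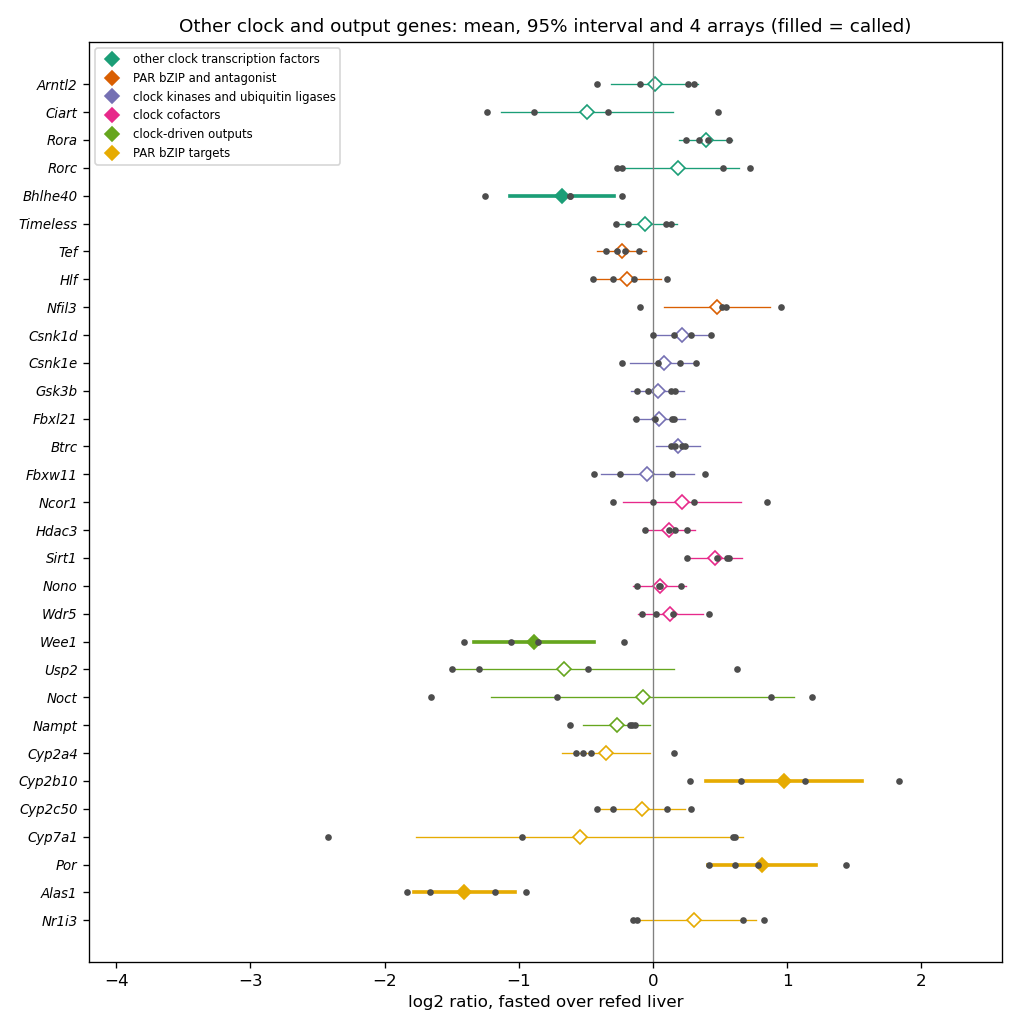
Log2 ratio of fasted over re-fed liver (horizontal axis) for 31 of the other clock and output genes that were measured, coloured by list, with a diamond at the mean (filled where called), a bar for the 95% interval of the limma fit and a dot for each array. Alas1 lies furthest left at -1.40 and Cyp2b10 furthest right at 0.97 among the called genes, and Cyp7a1 and Noct have the widest spread.

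The genes whose 4 ratios were most like those of Dbp and of Per2 were sought among 13022 named genes, by the root mean square difference over the 4 arrays. The nearest to Dbp was Per2, at 0.246. It was followed by Palld, an actin-associated protein, at 0.274, Thrsp, a lipogenic factor, at 0.276, Hspb1, a small heat shock protein, at 0.29, and B4galt5, a galactosyltransferase, at 0.316. The nearest to Per2 were Tuba1c, an alpha-tubulin, at 0.153, Hspb1 at 0.177, Fkbp4, a co-chaperone of Hsp90, at 0.232, P4ha1, a subunit of prolyl hydroxylase, at 0.234, and Dbp at 0.246. All of these genes were called lower in fasted liver, with mean ratios of -1.65 (B4galt5) to -1.11 (Fkbp4), which the choice by likeness to a called gene favours. The distances and their order that involve Per2 rest on readings near background in fasted liver, and the mean ratios of Per2 and Dbp lay further apart with processed signals (-2.71 and -1.46).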

How the data were processed

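Total RNA of 4 fasted and 4 re-fed livers was measured on 4 two-colour arrays of 1 slide and 1 scan. The authors quantified the scans with Agilent's software, and the deposited scanner files hold raw intensity per spot with local background and flags. A second deposited table holds the authors' log2 ratios after loess in limma. Its columns already run fasted over re-fed.

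The R package limma (3.58.1, under R 4.3.3) read the median signals. Spots whose local background exceeded 3 times the array's median were left out, the background was removed by normexp (offset 50), and loess was applied to each array. Outlier spots were left out only after the loess fit. The background step came after the data had been examined. The 4 ratios were tested with lmFit and eBayes, with Benjamini-Hochberg adjustment over 19721 kept probes. Levels were scaled between arrays by Aquantile. Paralogue differences were tested by all 16 sign flips, two-sided, with adjustment over 6 pairs that include Per2 and Per1. Probes were named through RefSeq accessions, symbols or synonyms. Named genes were all 10 clock genes, list genes that were called or in a pair, and the 5 genes nearest to Dbp and to Per2. Rora, Sirt1, Csnk1d, Usp2, Noct and Cyp7a1 were named after their values were seen. A list gene is counted but not reported here. Marker lists covered hepatocytes, cholangiocytes, endothelial cells, macrophages, stellate cells, pancreatic acinar cells, erythroid cells, adipose tissue and lymphocytes. The genes and lists were chosen with earlier results of these data known. Only the limma test and the rebuilt SAM test were tried on simulated data, which were log2 ratios. The number of arrays limits the precision.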

Additional observations from a re-analysis of the deposited data

Results flagged for a closer look

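On each of these, 1 array lay far from the other 3, a limit that chance passes in about 1 of 20 groups of 4. The ratio of Nampt, the rate-limiting enzyme of NAD salvage, was -0.619 on replicate 1 against -0.17 to -0.13 on the others. That of Cyp2a4, a steroid hydroxylase, was 0.157 on replicate 3 against -0.57 to -0.46. The mean of the pancreatic acinar markers was -3.81 on replicate 3. Scanned were 49 items, and what set these arrays apart was not tested.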

How the results depend on the processing

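Under the background fit on all spots, Dbp was at -0.66 and Per2 at -0.47 (adjusted p of 0.559 for either), 0 clock genes and 0 other genes were called lower, 0 other genes higher, and the median of the clock genes was 0.00143. Of the clock genes, 1 was called lower when the software's background flags were used or both channels had to be above background (Per2 then had no value), and with separate channels. Arntl made 1 called higher with processed signals and without a fold limit. The median was -0.19 with median centring and -0.00667 on replicates 2 and 4 alone (added after seeing the data). Without each replicate in turn, 2 clock genes were called lower and 0 higher, other genes called lower were 2, other genes called higher 1 to 2, and the median -0.10 to -0.03. Other genes called higher numbered 1 with median centring, scaling between arrays, no filter, separate channels or an adjusted p under 0.05, 0 with a 2-fold limit or on replicates 2 and 4, and 4 without a fold limit; a 2-fold limit left 1 called lower. The contrast of arrays by dye passed its limit for 0 clock genes with processed signals or both channels above background. No call of a clock gene changed sign. The ratio within an array is itself the paired comparison of a fasted and a re-fed liver, and the fit of separate channels keeps it only as 1 shared correlation between the channels of a spot, estimated at 0.144.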
